A study of Mus musculus with 28 samples.

Results

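Of the 26553 genomic regions bound by KAP1 in mouse embryonic stem (ES) cells, 10033 (37.8%) shared no base with either list of H3K9me3 regions, KAP1-dependent or KAP1-independent, or with the list of H3K4me3 peaks that overlapped between replicates. These 10033 regions, called unmarked KAP1 regions here, were taken by that overlap rule alone, at a minimum of 1 bp and without any 5hmC or RNA value. The other KAP1 regions were 14952 (56.3%) with H3K9me3 and 1568 (5.91%) with H3K4me3 and no H3K9me3. Coordinates are of mouse build mm9. The label depends on how close a mark may lie. With a margin of 1 kb, 904 of the unmarked regions (9.01%) had a listed mark and 9129 had none. Peaks called in a single H3K4me3 replicate touched 266 of the unmarked regions (2.65%), the H3K27me3 overlap list touched 101 (1.01%), and no unmarked region lay on an imprinting control region (ICR).

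The cells were J1 ES cells of strain 129S4/SvJae kept in 2i with LIF, a medium that holds them in a naive state with little DNA methylation. They were transduced with an empty control lentiviral vector (shEmpty) or one with a hairpin against *Kap1* (shKap1), selected with puromycin and collected at day 5. RNA-seq covered WT cells, cells knocked out for *Dnmt1*, *Dnmt3a* and *Dnmt3b* (DNMT TKO), which lack the DNA methyltransferases, and cells knocked out for *Tet1*, *Tet2* and *Tet3* (TET TKO), which cannot oxidise 5mC to 5hmC, with n = 3 libraries per treatment in WT and DNMT TKO and n = 2 in TET TKO. Each mutant was a single line obtained from another group, so that a line and its genotype cannot be told apart. 5hmC was measured by hMeDIP-seq in WT cells alone, where 1 replicate of each treatment could be used, and the KAP1 and H3K9me3 regions came from ChIP-seq that the study drew from a separate series. By the study's methods and legends the RNA replicates of all 3 lines came from independent experiments.

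KAP1, encoded by *Trim28*, is a corepressor that KRAB zinc finger proteins bring to DNA, most often to transposable elements (TEs) such as endogenous retroviruses and young L1 elements. There it recruits the H3K9 methyltransferase SETDB1, and at many sites the DNA below stays methylated even in naive cells. 5hmC is the product of TET enzymes acting on 5mC at CpG dinucleotides, and H3K4me3 marks active promoters. An unmarked KAP1 region thus carries the binding signal without a listed peak of either histone mark. Signal of the marks too weak to be listed was not measured here.

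The sequences of 6 unmarked KAP1 regions were read from the NCBIM37 genome, which is mm9, on the forward strand, as the central 300 bases, with every CpG in capitals and all else in lower case. The first pair are a young L1 whose 5hmC was far higher after knockdown (KAP1_25186, L1Md_A, chrX:47819506-47819805, 18 CpGs) and a solitary RMER17A2 LTR whose 5hmC was far lower (KAP1_12810, chr2:29612453-29612752, 1 CpG).

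KAP1_25186: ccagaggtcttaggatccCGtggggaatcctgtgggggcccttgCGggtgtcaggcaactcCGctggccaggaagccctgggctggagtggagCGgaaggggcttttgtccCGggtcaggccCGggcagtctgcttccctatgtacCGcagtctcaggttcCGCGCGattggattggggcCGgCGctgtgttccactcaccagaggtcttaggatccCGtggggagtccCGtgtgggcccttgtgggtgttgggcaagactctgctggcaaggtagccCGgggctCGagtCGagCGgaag

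KAP1_12810: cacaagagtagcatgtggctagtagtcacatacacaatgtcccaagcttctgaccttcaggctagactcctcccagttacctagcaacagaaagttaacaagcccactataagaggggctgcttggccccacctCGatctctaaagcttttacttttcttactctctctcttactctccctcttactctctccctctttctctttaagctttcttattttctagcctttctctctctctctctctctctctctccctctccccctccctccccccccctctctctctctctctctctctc

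The following pair lie by the genes with the largest rise and one of the clearest falls of RNA, *Ceacam19* (KAP1_20829, chr7:20470053-20470352, 5 CpGs) and *Prkg2* (KAP1_18306, an IAPLTR2_Mm solitary LTR, chr5:99494442-99494741, 9 CpGs).

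KAP1_20829: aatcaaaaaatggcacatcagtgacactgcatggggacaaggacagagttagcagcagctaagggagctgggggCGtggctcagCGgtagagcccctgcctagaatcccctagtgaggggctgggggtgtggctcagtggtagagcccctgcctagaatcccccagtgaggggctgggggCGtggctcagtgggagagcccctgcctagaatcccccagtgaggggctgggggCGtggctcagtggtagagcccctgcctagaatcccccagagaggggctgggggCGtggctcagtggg

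KAP1_18306: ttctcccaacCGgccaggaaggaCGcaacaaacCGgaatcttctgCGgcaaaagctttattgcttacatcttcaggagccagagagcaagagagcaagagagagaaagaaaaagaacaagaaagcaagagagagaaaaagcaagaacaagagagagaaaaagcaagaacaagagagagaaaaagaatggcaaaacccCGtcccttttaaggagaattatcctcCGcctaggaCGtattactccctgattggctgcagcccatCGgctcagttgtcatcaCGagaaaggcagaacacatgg

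The last pair lie on integrants, the single TE copies of the repeat annotation, of which one was silent until knockdown (KAP1_2610, on an RLTR9E LTR beside an internal part, chr10:57999067-57999366, 5 CpGs) and one lost its RNA (KAP1_987, LTRIS2 of an RLTR1B provirus, chr1:92519384-92519683, 6 CpGs).

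KAP1_2610: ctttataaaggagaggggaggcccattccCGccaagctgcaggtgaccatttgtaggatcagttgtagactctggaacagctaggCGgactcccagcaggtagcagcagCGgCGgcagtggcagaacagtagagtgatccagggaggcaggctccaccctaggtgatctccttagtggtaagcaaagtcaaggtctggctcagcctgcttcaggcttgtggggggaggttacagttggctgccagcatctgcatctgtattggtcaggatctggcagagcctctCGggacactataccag

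KAP1_987: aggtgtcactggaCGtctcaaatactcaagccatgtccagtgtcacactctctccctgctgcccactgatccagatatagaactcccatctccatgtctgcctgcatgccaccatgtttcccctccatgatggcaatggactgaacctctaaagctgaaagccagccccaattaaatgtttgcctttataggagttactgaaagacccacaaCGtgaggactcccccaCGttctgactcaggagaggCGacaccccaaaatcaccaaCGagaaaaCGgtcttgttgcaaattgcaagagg

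The hexamer TGCCGC, the core of the sequence bound by the KRAB zinc finger protein ZFP57, was searched on both strands as a description of these windows. It occurred in the central 300 bases of 2202 of the 9713 unmarked regions with genome sequence (22.7%), against 16.03% of KAP1 regions with H3K9me3 and 18.6% of all KAP1 regions. Among the 6 windows above it lay in KAP1_18306 and KAP1_2610. Unmarked regions with the hexamer had more CpGs (median 11 against 6 per window) and a higher KAP1 score (545 against 332) than those without it, and their 5hmC change on knockdown was much the same, at a median of 0.40 against 0.42 on the log2 scale.

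Unmarked KAP1 regions were short and of modest peak score. Their median width was 591 bp (quartiles 500 and 692), against 910 bp for KAP1 regions with H3K9me3 and 672 bp for those with H3K4me3, and together they covered 6.20 Mb. The median MACS score, the peak caller's grade of how significant a peak is over input and no fold of enrichment, was 365, against 902 and 250. Of all KAP1 regions with a score up to 200, 54.3% were unmarked. That share was 52.9% for scores of 200 to 400, 43.9% for 400 to 800, 26.1% for 800 to 1600 and 10.2% above 1600.

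Unmarked regions lay about as far from genes as H3K9me3 regions did. Intergenic sequence held 7473 of the unmarked regions (74.5%), introns 2081 (20.7%) and exons 479 (4.77%). The median distance to the start of an expressed gene was 86149 bp, close to the 87548 bp of KAP1 regions with H3K9me3 and far from the 15591 bp of those with H3K4me3. Chromosomes 6 and 8 held fewer unmarked regions, 25.6% and 21.3% of their KAP1 regions against 33.4 to 42.8% on the other autosomes, and the KAP1-dependent H3K9me3 list was longer there (1296 and 1217 rows, against 904 and 721 on chromosomes 7 and 5). On unplaced sequence 320 of 331 KAP1 regions were unmarked, but neither H3K9me3 list had any row there, so their label says nothing about the mark. Without unplaced sequence 9713 unmarked regions remained.

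Nearly all unmarked regions lay on TEs. At least 1 TE was touched by 9206 of the 10033 (91.8%), against 98.2% of KAP1 regions with H3K9me3 and 58.2% of those with H3K4me3. LTR elements, the remains of endogenous retroviruses, were touched by 6813 (67.9%) and made up 53.9% of their bases, LINEs by 33.6% (20.7% of bases) and SINEs by 14.4% (3.203% of bases). The ERVK class, which holds IAP, ETn and MMERVK elements, was touched by 53.6%, against 72.5% of the H3K9me3 regions, and LINEs by nearly equal shares of both kinds (33.6 and 32.2%). The clearest difference was in the structure of the LTR element. LTRs that the annotation joined to no internal part, called solitary here, were touched by 4421 unmarked regions (44.1%) and by 17.6% of H3K9me3 regions. Elements annotated with an internal part were touched by 2874 (28.6%) and by 72.1%. Some LTRs called solitary had an internal part annotated within 1000 bp and may be pieces of a longer provirus: 961 of 5389 in unmarked regions (17.8%) and 49.2% of those in H3K9me3 regions. Without them, solitary LTRs were touched by 3647 unmarked regions (36.4%) and by 8.25% of H3K9me3 regions.

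The families behind this were counted for every repeat name with at least 50 integrants in unmarked regions, 69 in all. L1Md_A, a young group of mouse L1, came first, with 1118 unmarked regions beside 1664 with H3K9me3 and 5 with H3K4me3. IAPLTR2_Mm, a solitary LTR of IAP, came second with 515 unmarked and 295 H3K9me3 regions, followed by L1Md_F2 with 468 and 764, RLTR10 proviruses with 369 and 459 and L1Md_T with 331 and 668. The related solitary LTRs IAPLTR2a and IAPLTR2b held 317 and 110, and 237 and 100. Unmarked regions were more than 80% of the KAP1 regions on 8 families, all solitary LTRs: RMER17D2 (71 of them, 89.9%), RLTR13B4 (50, 89.3%), RMER17C (88, 83.02%), IAPEY2_LTR (207 of them, 88.1%), MURVY-LTR (161, 88.0%), IAPEY_LTR (199, 82.6%), RLTR13B1 (180, 82.2%) and RLTR9E (246, 81.7%). Of the 161 MURVY-LTR regions 8 lay on unplaced sequence, where neither H3K9me3 list has a row, and on placed chromosomes alone its share was 87.4%. IAPEz elements with an internal part stood at the other end, with 293 unmarked regions (5.97%) where the LTR was IAPLTR1 and 206 (8.47%) where it was IAPLTR2, beside 4608 and 2227 with H3K9me3. Of these unmarked IAPEz regions 55 and 50 lay on unplaced sequence, and on placed chromosomes alone the shares were 4.91 and 6.55%. All these counts take KAP1 regions anywhere on the element.

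**Figure D1:**
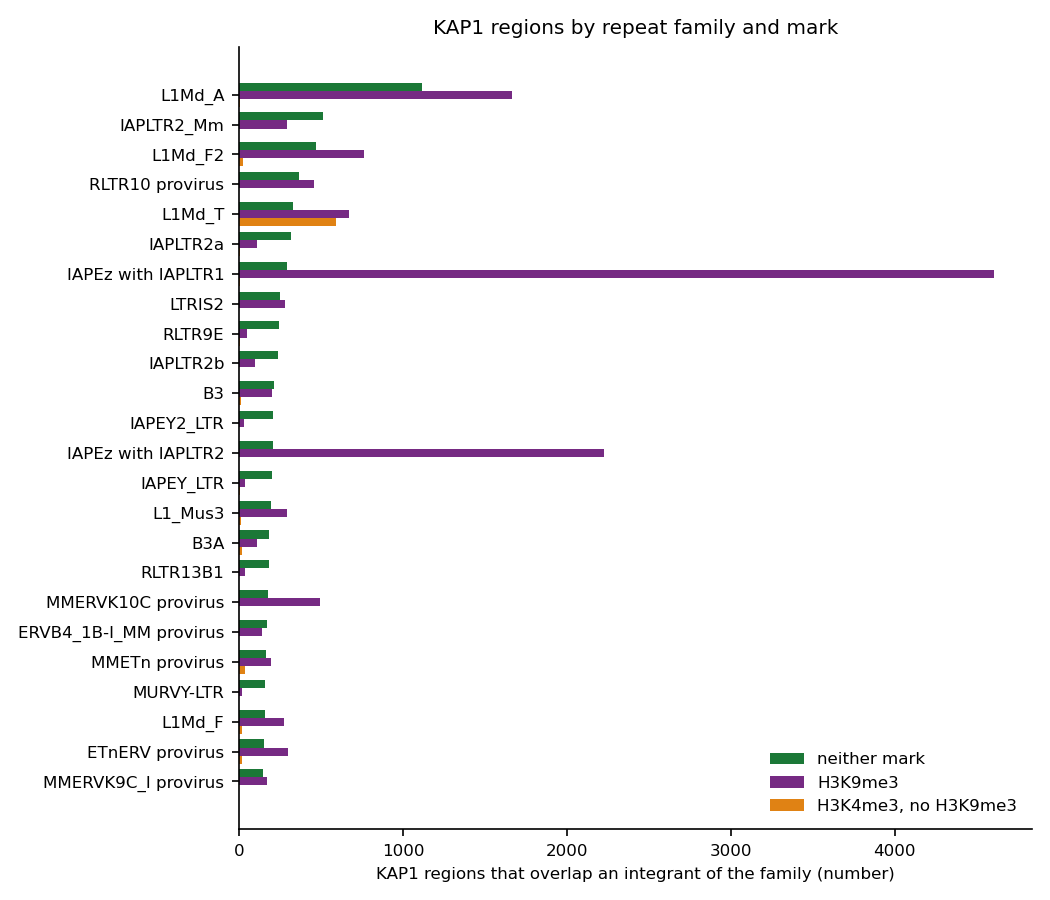
Unmarked KAP1 regions by repeat family: for each family the horizontal bars give the number of KAP1 regions that touch it (x axis, regions), split into unmarked regions, regions with H3K9me3 and regions with H3K4me3 and no H3K9me3. L1Md_A and the solitary IAPLTR2_Mm LTRs hold the most unmarked regions, and 293 of the regions on IAPEz with IAPLTR1 are unmarked beside 4608 with H3K9me3.

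Within an element the regions lay at particular places. On L1Md_A the centre of the unmarked region lay a median of 218.5 bp from the annotated 5′ end, where the promoter monomers of this L1 lie, and 98.4% were within 1 kb of it. For L1Md_A regions with H3K9me3 the values were 323 bp and 92.6%. Solitary IAPLTR2_Mm, IAPLTR2a and IAPLTR2b LTRs were so short that 94.4%, 97.8% and 94.1% of them lay whole or nearly whole inside the KAP1 region. In H3K9me3 regions the shares were 99.0, 96.4 and 97%. On IAPEz with IAPLTR1 the centre lay a median of 4720 bp from the 5′ end, against 3054 bp for the H3K9me3 regions of the same family, and 78.0% of the unmarked regions lay inside the element. Of all annotated IAPLTR2a integrants, 67.7% of 471 lay in an unmarked region, and of IAPLTR2_Mm 49.7% of 1042.

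The 827 unmarked regions without a TE were nearer to promoters than the rest. An exon was touched by 219 of them, 57 lay within 1 kb of the start of an expressed gene, 57 touched an H3K4me3 peak of a single replicate and 59 the H3K27me3 overlap list. They thus held 59 of the 101 unmarked regions with H3K27me3.

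5hmC was read as log2 of 5hmC over input, each count plus 1 read and divided by the library's total over all deposited region sets. With 1 library per condition there is no replicate check and no test, and the intervals given cover counting error only. A region needed at least 10 reads over both inputs, which 9722 of the 10033 unmarked regions had. In a median unmarked region the shEmpty input held 11 reads and the shKap1 input 14, while the 5hmC libraries held 21 and 29, so single regions are imprecise and the medians carry the description. Total reads in the region sets were 4590132 and 6522892 in the inputs and 7824611 and 8817570 in the 5hmC libraries. The study's methods name a filter for uniquely placed reads for RNA but none for hMeDIP-seq. Reads on near-identical copies, such as young L1 or IAP elements, may thus stem from other copies, those with H3K9me3 included. The 5hmC of a single copy is therefore uncertain.

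In shEmpty, 5hmC over input had a median of 0.14 in unmarked regions (quartiles -0.68 and 0.82), 0.00 in H3K9me3 regions and -0.95 in H3K4me3 regions. It was at least 2-fold over input in 1905 unmarked regions (19.6%), against 15.5% of all KAP1 regions and 13.7% of those with H3K9me3. In shKap1 the medians were 0.57, 0.91 and -0.67, and at least 2-fold over input were 35.1% of unmarked regions, against 40.1% of all KAP1 regions and 46.3% of those with H3K9me3. The shares depend on the scaling: in shEmpty 63.6% of unmarked regions were at least 2-fold over input when scaled to H3K4me3 regions, 34.4% when scaled without the 10 regions with most reads and 29.5% without the one with most, against 62.9, 27.5 and 22.9% of H3K9me3 regions. The share was higher in unmarked than in H3K9me3 regions under each of these scalings before knockdown. Within families the median over input in shEmpty was higher in unmarked regions in only 32 of 64 families. The shEmpty median of unmarked regions lies near 0 and its sign is not firm. With at least 30 input reads it was -0.03, below the -0.02 of H3K9me3 regions. With 5 reads added in place of 1 it was -0.05, above their -0.10.

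The change on knockdown had a median of 0.42 in unmarked regions (quartiles -0.18 and 1.00), 0.82 in H3K9me3 regions and 0.26 in H3K4me3 regions. It rose at least 2-fold in 2444 unmarked regions (25.1%), against 33.6% of all KAP1 regions and 40.7% of those with H3K9me3, and fell at least 2-fold in 555 (5.71%), against 3.47% of all and 1.56% of those with H3K9me3. The zero of this scale is not fixed by the data. A single region of chromosome 9, chr9:3000001-3038399, held 20.9 and 26.0% of the input reads and 35.9 and 22.5% of the 5hmC reads, and scaling without it moved the median change to 0.047 in unmarked, 0.45 in H3K9me3 and -0.10 in H3K4me3 regions. Scaling without the 10 largest regions gave -0.087, 0.32 and -0.24, so that the sign for unmarked regions turned. The share of unmarked regions with a rise of at least 2-fold was 13.8 and 10.9% under these scalings and 13.5% when scaled to H3K4me3 regions, against 22.8, 17.8 and 22.0% of H3K9me3 regions. These scalings add the same amount to the change of every region. The order of the kinds by median change, H3K9me3 above unmarked above H3K4me3, thus could not differ between them.

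**Figure D2:**
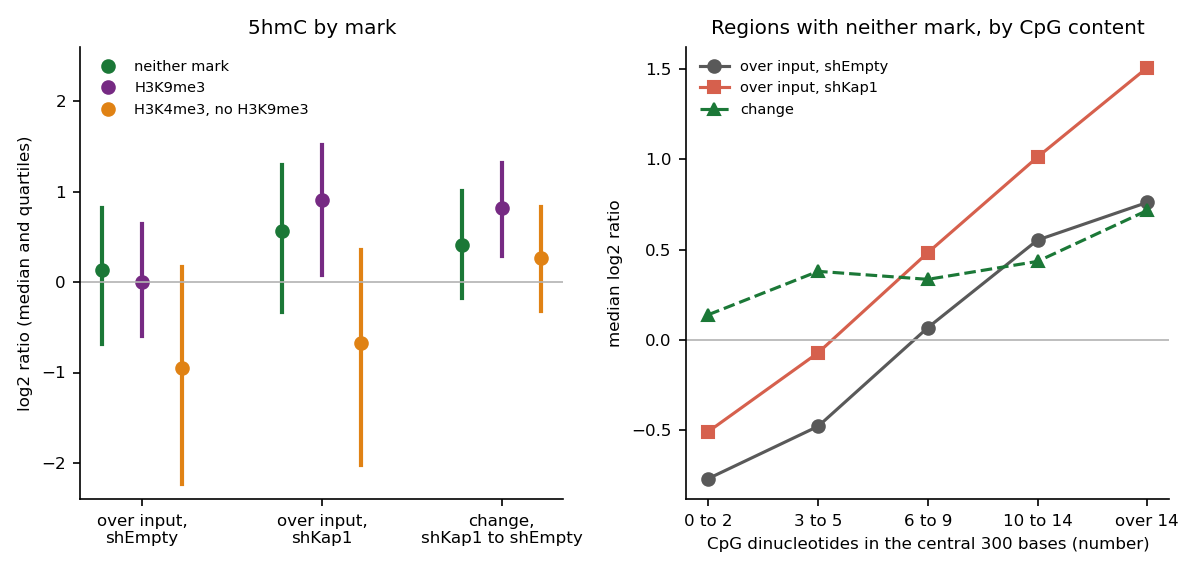
5hmC over input in WT cells with shEmpty and shKap1 and its change (y axis, log2) in unmarked KAP1 regions, KAP1 regions with H3K9me3 and those with H3K4me3 and no H3K9me3, left, where points are medians and vertical lines span the quartiles over regions of 1 library per condition; right, the medians in unmarked regions by CpG number (x axis). The median change is 0.42 in unmarked regions and 0.82 in H3K9me3 regions, and the level in unmarked regions is higher in each class of higher CpG number.

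The smaller change of unmarked regions was also present within classes of MACS score, in which width was not matched. For regions with a MACS score up to 200 the median change was 0.31 in unmarked and 0.59 in H3K9me3 regions. The pair of values was 0.41 and 0.51 for scores of 200 to 400, 0.47 and 0.68 for 400 to 800, 0.45 and 0.86 for 800 to 1600, and 0.45 and 1.07 above 1600. In unmarked regions the change was larger up to scores of 400 to 800 and flat above, whereas it was larger at each higher score from 200 up in H3K9me3 regions. Within families the change was lower in unmarked than in H3K9me3 regions in 60 of 64 families with at least 20 measured regions of each kind, by a median of -0.45, and both score and width were lower in 64 of 64.

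CpG content went with the level of 5hmC in unmarked regions. With 0 to 2 CpGs in the central 300 bases the median of 5hmC over input in shEmpty was -0.77, with 3 to 5 it was -0.48, with 6 to 9 it was 0.07, with 10 to 14 it was 0.55 and with over 14 it was 0.76. The change on knockdown was 0.14, 0.38, 0.33, 0.43 and 0.72 over the same classes. Across 9444 unmarked regions Spearman's rho between CpG count and 5hmC over input was 0.485, and between CpG count and change 0.183, as a description, since all points share the same 4 libraries and 5hmC lies at CpGs.

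Families differed in both measures, with the limit given above for reads of near-identical copies. L1Md_A had a median of 0.66 over input in shEmpty and a change of 0.89, the ETnERV provirus 0.02 and 1.11, MMETn -0.15 and 0.83, and L1Md_T 0.62 and 0.54. Solitary IAPLTR2_Mm and IAPLTR2a started high, at 0.92 and 0.78, and changed little, by 0.28 and 0.31, as did the RLTR10 provirus at 1.16 and 0.19 and the older RMER17C at 0.74 and -0.03. RLTR9E and ERVB4_1B started low, at -0.96 and -1.21, and changed by 0.49 and 0.20. By structure the change was 0.66 in unmarked regions whose only TE was a LINE, 0.48 where the LTR had an internal part, 0.26 where the only TE was a solitary LTR, and 0.30 without a TE. On the X chromosome it was 0.68, with a median of 7 reads in the shEmpty input.

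Single regions show the reads behind these values. KAP1_9325, on an MMERVK10C provirus at chr16:18976241-18977279, had 10 and 21 input reads in shEmpty and shKap1 and 154 and 161 reads of 5hmC, or 3.05 over input in shEmpty. KAP1_24667, on an L1Md_F2 of unplaced sequence of chromosome 9, had 3230 and 4078 input reads and 42782 and 20532 of 5hmC, or 2.96.

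The largest rises differed in what made them. KAP1_25186, the L1Md_A promoter at chrX:47819266-47820046, had 16 and 16 input reads and went from 12 to 89 reads of 5hmC, a change of 3.13 (counting interval 1.84 to 4.41). KAP1_24694, an L1Md_A on unplaced sequence, had 23 and 22 input reads and went from 20 to 116, a change of 2.87. In 2 other regions the change came from the input: KAP1_20967 on MMETn went from 9637 to 594 input reads with 91 and 55 reads of 5hmC, and KAP1_8011 on B1_Mus1 from 35 to 3 with 15 and 19. The largest falls were in KAP1_3566 (34 to 14 reads of 5hmC, input 7 and 23) and KAP1_12810 at chr2:29612354-29612851 (52 to 22 reads, input 8 and 24; -2.34, interval -3.65 to -1.04), and in both the input was higher in shKap1.

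RNA came from 16 libraries with 18108431 to 29373696 reads on genes and 898152 to 1803819 on TEs, of which integrants in unmarked regions took 18184 to 105300. *Trim28* stood at 1627 to 1991 counts per 1000000 gene reads (CPM) in WT shEmpty and 149 to 190 in WT shKap1, at 1701 to 2086 and 327 to 506 in DNMT TKO, and at 1772 to 1899 and 163 to 168 in TET TKO, so the knockdown was weaker in DNMT TKO (difference of log2 changes 1.28, SE 0.21). The 12 naive ES cell markers found summed to 4345 to 4723 CPM in shEmpty and 2777 to 3586 in shKap1, and those of primitive endoderm, trophoblast and fibroblasts to at most 26.6 CPM in any library. The 3 markers of 2-cell-like cells found, all called up in each line, rose from 10.2 to 19.7 up to 154 to 171 CPM in WT, from 4.72 to 14.8 up to 47.1 to 104 in DNMT TKO and from 6.65 to 7.23 up to 463 to 477 in TET TKO. A rise in the number of such cells and a rise of RNA per cell cannot be told apart in bulk RNA, and the part of these cells in the results that follow was not tested.

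TE integrants in unmarked regions gave more RNA after knockdown. Summed over the integrants that touched an unmarked region and no other KAP1 region, without any filter on reads, the level was 705 to 730 CPM in WT shEmpty and 1761 to 1780 in WT shKap1, a ratio of 2.46. In DNMT TKO it went from 741 to 1030 up to 2052 to 2555, a ratio of 2.64, with no overlap of treatments. In TET TKO the shEmpty libraries stood at 683 and 2959 and the shKap1 libraries at 2419 and 2439. The high TET TKO shEmpty library (replicate 2) stood apart through 5 integrants, led by an ORR1A2 at chr14:105114800-105115455 with 1630 reads in replicate 1 and 44546 in replicate 2. With all integrants kept, the treatments thus overlapped in TET TKO. Those 5 were picked as the largest excesses of replicate 2 over replicate 1, so the 2 libraries were bound to lie closer without them. Without those 5 the TET TKO shEmpty libraries stood at 583 and 596 and shKap1 at 2295 and 2317, and in WT the sums were 577 to 603 and 1615 to 1677. Integrants that touched H3K9me3 regions and no unmarked one went from 1306 to 1354 up to 9611 to 10867 in WT.

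Of 15044 integrants in an unmarked region, 2801 had the 16 reads over all libraries that the test needed, and an integrant could pass through its knockdown libraries alone, so the shares that follow describe the integrants that passed. edgeR's quasi-likelihood test with Benjamini-Hochberg adjustment over 123880 integrants, with calls at adjusted p below 0.05 and 2-fold or more, called 1024 of the 2801 up in WT (36.6%), where 12.1% of all integrants tested were called up. In DNMT TKO 1529 were up (54.6%, against 15.0%) and in TET TKO 1253 (44.7%, against 14.7%). Falls numbered 17, 6 and 8, where 2.05, 0.944 and 0.971% of all integrants fell. The median log2 change in WT was 2.03, against 0.23 over all integrants tested. DESeq2's Wald test called fewer up in all 3 lines, 774 in WT, 928 in DNMT TKO and 782 in TET TKO, so that by this tool TET TKO and WT lay close together. Among integrants with at least 160 reads 499, 520 and 515 were called up in WT, DNMT TKO and TET TKO, so that the lines hardly differed in number there.

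Part of this came from proviruses that a marked KAP1 region also touched. Of the 425 tested integrants that touched an H3K9me3 region as well, 318 (74.8%) rose in WT. Of the 2364 that touched unmarked regions alone, 703 (29.7%) rose in WT, 1171 (49.5%) in DNMT TKO and 920 (38.9%) in TET TKO, and 17, 6 and 7 fell. Integrants that touched H3K9me3 regions and no unmarked one rose in 56.0, 71.1 and 59.0% of 6648 tested. Those in H3K4me3 regions, with neither of the other kinds, rose in 10.7, 46.8 and 20.2% of 647. Of the 703 that rose in WT, 543 also rose in DNMT TKO, which is 77.2% of the WT list and 46.4% of the DNMT TKO list, and 535 in TET TKO, which is 76.1% and 58.2%. Over all integrants tested the shares were 63.7 and 51.4% for DNMT TKO and 72.6 and 59.9% for TET TKO.

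**Figure D3:**
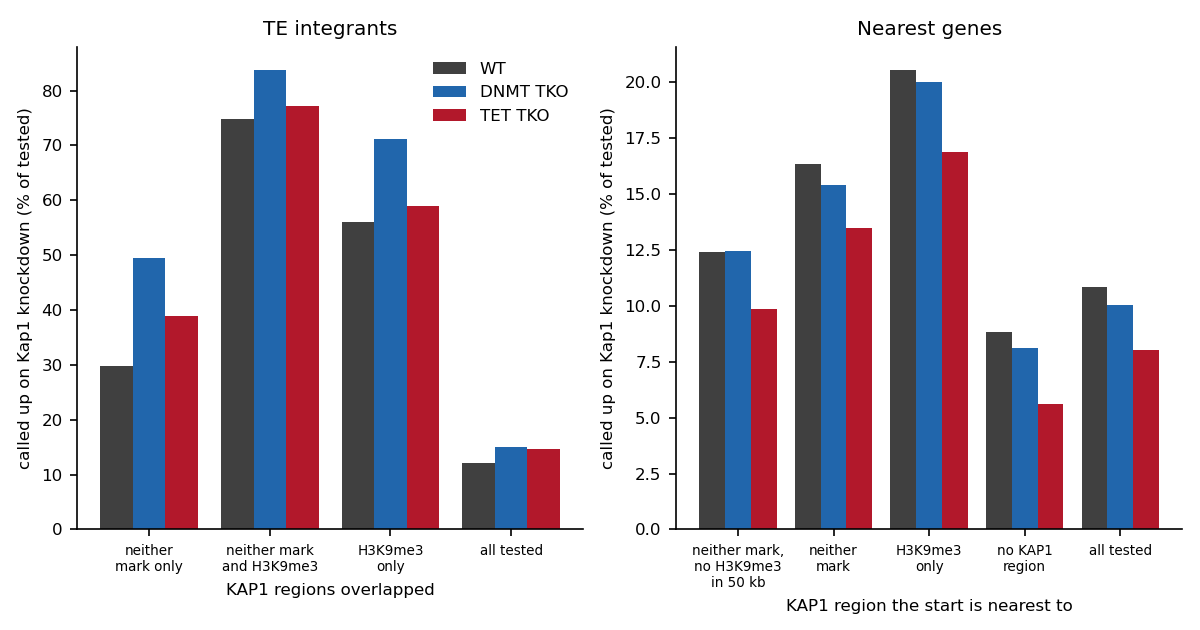
Share of tested TE integrants (left) and genes (right) called up on *Kap1* knockdown (y axes, percent, from 0, on different scales) in WT, DNMT TKO and TET TKO, for integrants touching unmarked KAP1 regions alone, both unmarked and H3K9me3 regions, or H3K9me3 regions and no unmarked one, for genes by the KAP1 region nearest to their start, and for all tested. The integrant bars of unmarked regions alone stand at 29.7, 49.5 and 38.9%, between all integrants tested (12.1, 15.0 and 14.7%) and those of H3K9me3 regions.

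The knockdown effect itself was compared between genotypes by the interaction in the same fit. It differed between DNMT TKO and WT in 141 of the 2801 integrants, 76 with a larger and 65 with a smaller log2 change, where 1.80% of all integrants tested differed (1.33% larger and 0.473% smaller). Between TET TKO and WT it differed in 80, 55 larger and 25 smaller, against 1.07% of all (0.831% and 0.243%). Before knockdown, DNMT TKO shEmpty was above WT shEmpty in 291 of the 2801 (10.4%, against 3.48% of all) and below it in 186 (6.64%, against 6.45%). TET TKO shEmpty was above in 108 (against 1.74%) and below in 102 (against 2.33%). Both interactions share the WT libraries, and both counts were much lower by DESeq2 and with at least 160 reads, as given in the part on processing. The count for TET TKO rested on its pair of shEmpty libraries, as it was 41 without replicate 1 and 44 without replicate 2.

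L1Md_A was the family with the most tested copies, 776 of the 2364 integrants touching unmarked regions alone. Their summed level outside expressed genes went from 36.0 to 48.4 CPM up to 87.3 to 109 in WT, from 62.8 to 71.3 up to 242 to 306 in DNMT TKO and from 19.6 to 20.7 up to 141 to 152 in TET TKO, with no overlap of treatments in any line. Rises were called in 121 (15.6%), 395 (50.9%) and 249 (32.1%) of them. The shares were 28.9, 58.9 and 43.4% for L1Md_A copies touching H3K9me3 regions and no unmarked one. Of all integrants tested 12.1, 15.0 and 14.7% rose, so that in WT the share of the unmarked copies lay near that of all integrants. The knockdown effect was larger than in WT for 15 copies in DNMT TKO (1.93%, against 1.33% of all) and smaller for 2, and larger for 11 (1.42%, against 0.831%) and smaller for 0 in TET TKO, shares close to those of all integrants. The summed level of L1Md_T went from 36.2 to 41.3 up to 58.4 to 64.0 CPM in WT, from 12.3 to 13.5 up to 78.1 to 96.8 in DNMT TKO and from 15.8 to 16.6 up to 76.0 to 78.5 in TET TKO, with 27, 118 and 62 of 235 copies called up (11.5, 50.2 and 26.4%), in WT slightly under the 12.1% of all integrants. For L1Md_T the knockdown effect was larger than in WT for 18 copies in DNMT TKO (7.66%, against 1.33% of all) and smaller for 0. In TET TKO it was larger for 7 (2.98%, against 0.831%) and smaller for 0. Among L1Md_T copies touching H3K9me3 regions and no unmarked one, 8.18 and 2.27% were larger. Young L1 copies are nearly identical and only uniquely placed reads were counted, so the level of a single copy is uncertain. Summed levels of families, here and below, take integrants outside expressed genes alone, while counts of calls take all tested ones.

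The solitary IAP LTRs of the unmarked regions had little RNA counted on them. Levels are not scaled by length, and these elements are short, with a median of 450 bp for IAPLTR2_Mm against 5509 bp for L1Md_A. Reads wholly beyond the annotated LTR, or not uniquely placed, were not counted. Of 518 IAPLTR2_Mm integrants 28 passed the filter, and 8, 15 and 11 were called up in WT, DNMT TKO and TET TKO (28.6, 53.6 and 39.3%, beside 12.1, 15.0 and 14.7% of all integrants tested). Outside expressed genes the summed level of IAPLTR2_Mm went from 1.14 to 1.38 up to 3.47 to 4.30 CPM in WT, from 1.504 to 1.80 up to 8.37 to 10.9 in DNMT TKO and from 1.87 to 2.25 up to 7.08 to 7.44 in TET TKO. IAPLTR2a went from 0.285 to 0.460 up to 1.31 to 1.44, from 0.463 to 0.762 up to 6.16 to 8.02 and from 0.247 to 0.413 up to 2.45 to 2.46. RMER17C, another solitary LTR, went from 0.602 to 0.722 up to 1.26 to 2.25 in WT and from 0.559 to 0.967 up to 4.85 to 6.40 in DNMT TKO, while in TET TKO the treatments overlapped, at 0.714 to 0.881 and 0.667 to 0.787.

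Several proviruses with internal parts rose from low levels. MMERVK9C_I went from 4.70 to 8.61 up to 94.4 to 132 CPM in WT, from 18.6 to 20.8 up to 95.1 to 154 in DNMT TKO and from 17.2 to 21.5 up to 175 to 182 in TET TKO, with 42, 41 and 43 of 61 tested copies called up (12.1, 15.0 and 14.7% of all integrants tested were). MMERVK10C went from 4.34 to 5.66 up to 52.9 to 56.2 in WT and from 4.12 to 4.84 up to 102 to 111 in TET TKO, with 55, 55 and 61 of 66 tested copies called up in WT, DNMT TKO and TET TKO. IAPEz with IAPLTR1 went from 1.03 to 1.13 up to 45.6 to 47.5 in WT and from 0.740 to 0.864 up to 26.4 to 28.5 in TET TKO, with 27, 26 and 21 of 28 tested copies up. MMETn was already expressed, at 114 to 118 CPM in WT shEmpty, and stood at 320 to 354 in shKap1, with 75, 71 and 76 of 98 tested copies called up in the 3 lines. In WT these shares were 68.9% for MMERVK9C_I, 83.3% for MMERVK10C, 96.4% for IAPEz with IAPLTR1 and 76.5% for MMETn. For copies touching H3K9me3 regions and no unmarked one they were 78.6, 84.7, 90.7 and 76.6%. Copies of both kinds thus lay close in most of these families. ETnERV proviruses lay farther apart, at 55.9 against 83.1%. The part of family mix in the lower share over all unmarked integrants was not tested.

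The 8 integrants with the largest rises in WT among those in unmarked regions alone were all ERVK elements. Here and below, p-values of integrants rest largely on variance shared over all integrants fitted. Very small ones therefore do not measure the spread of an integrant's own few libraries. The MMERVK9C_I part at chr10:57996542-57998806, within *Ccdc138*, had 0, 0 and 0 CPM in WT shEmpty and 9.86, 5.85 and 6.13 in shKap1, at least 178-fold higher against a floor of 3 reads over the shEmpty group (edgeR quasi-likelihood, adjusted p = 1.6e-95). In DNMT TKO it went from 0.152, 0.138 and 0.193 to 7.93, 5.55 and 7.05, and in TET TKO from 0.141 and 0.0751 to 10.1 and 10.2. The RLTR9E LTR beside it, at chr10:57998919-57999299, whose KAP1 sequence is printed above, went from 0 in every WT library to 4.19, 3.07 and 2.88 CPM, at least 83.4-fold, and from 0 to 4.95 and 5.39 in TET TKO, at least 94.6-fold. Both were listed at or near 0 in shEmpty of every line and high in shKap1 of every line. They were annotated apart but may be pieces of 1 provirus, and are not separate observations.

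A full RLTR9E/MMERVK9C_I provirus at chr10:70300177-70305695 went from 0, 0 and 0 to 6.19, 6.58 and 6.24 CPM in WT, at least 158-fold. A related one at chr1:7114719-7120200 in *Pcmtd1* had 1 read over WT shEmpty and 852 over shKap1, a ratio of 1040 with a counting interval of 186 to 41130, but 10.2, 3.94 and 3.51 CPM already in DNMT TKO shEmpty and 50.8, 15.0 and 19.8 in shKap1. An RLTR13E/ERVB2 element inside that span (chr1:7115180-7115913, at least 67.6-fold in WT) overlaps it and is no separate observation. An IAPEz flanked by IAPLTR1 in *Fras1*, at chr5:96914518-96919707, went from 0 to 4.35, 5.20 and 3.41 CPM in WT, at least 109-fold, and from 0 to 0.370 and 0.308 in TET TKO, at least 6.25-fold.

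The remaining rises by the same rule were an MMERVK9E part in *Pgcp* at chr15:33032597-33038856, at 0 in every shEmpty library of the 3 lines and at least 78.1-fold higher in WT, 43.9-fold in DNMT TKO and 91.5-fold in TET TKO, and an RLTR45/ERVB4_2 element at chr7:19336133-19337662, at least 83.01-fold higher in WT. One fall met the rule. LTRIS2/RLTR1B at chr1:92519582-92523073 went from 36.8, 25.5 and 31.8 CPM to 0.577, 1.21 and 0.693 in WT, a log2 change of -5.21 (SE 0.20, edgeR adjusted p = 7.4e-145). It went from 13, 19.6 and 15.6 to 3.89, 4.94 and 4.08 in DNMT TKO and from 37.9 and 44.5 to 2.27 and 2.46 in TET TKO. No library overlapped between treatments, and the fall was smaller in DNMT TKO than in WT (difference 3.31, SE 0.25, adjusted p = 7.1e-35).

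Among integrants with at least 100 reads in the libraries of both lines compared, the 2 largest called differences of the knockdown effect from WT were taken for each mutant, and each had RNA already in the mutant's shEmpty libraries. For DNMT TKO the larger was that of the chr1:7114719-7120200 provirus (difference -7.26, SE 1.35, edgeR adjusted p = 0.022), a call that 5 other settings lost. The other was that of an IAP-d element. It lies at chr12:18906357-18909289 and went from 0.167, 0.0356 and 0.0354 CPM to 3.35, 3.46 and 4.37 in WT. In DNMT TKO it stood at 3.45, 5.70 and 3.35 in shEmpty and 6.15, 4.70 and 5.30 in shKap1, where the treatments overlapped (difference -5.31, SE 0.45, edgeR adjusted p = 6.7e-28). For TET TKO both were pieces of an MMETn copy in *2810429I04Rik*. RLTR45/ERVB4_2, with under 100 reads in TET TKO, had a larger fitted difference (-6.97), which depends on the prior count since WT shEmpty had 0 reads. The MMETn piece at chr13:3484008-3484773 differed by -5.30 (SE 0.49). The piece at chr13:3485329-3488292 went from 0, 0.0712 and 0.212 to 20.8, 17.4 and 18.9 CPM in WT and from 6.20 and 6.05 to 25.6 and 29.8 in TET TKO (difference -5.24, SE 0.36, adjusted p = 3.6e-42).

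**Figure D4:**
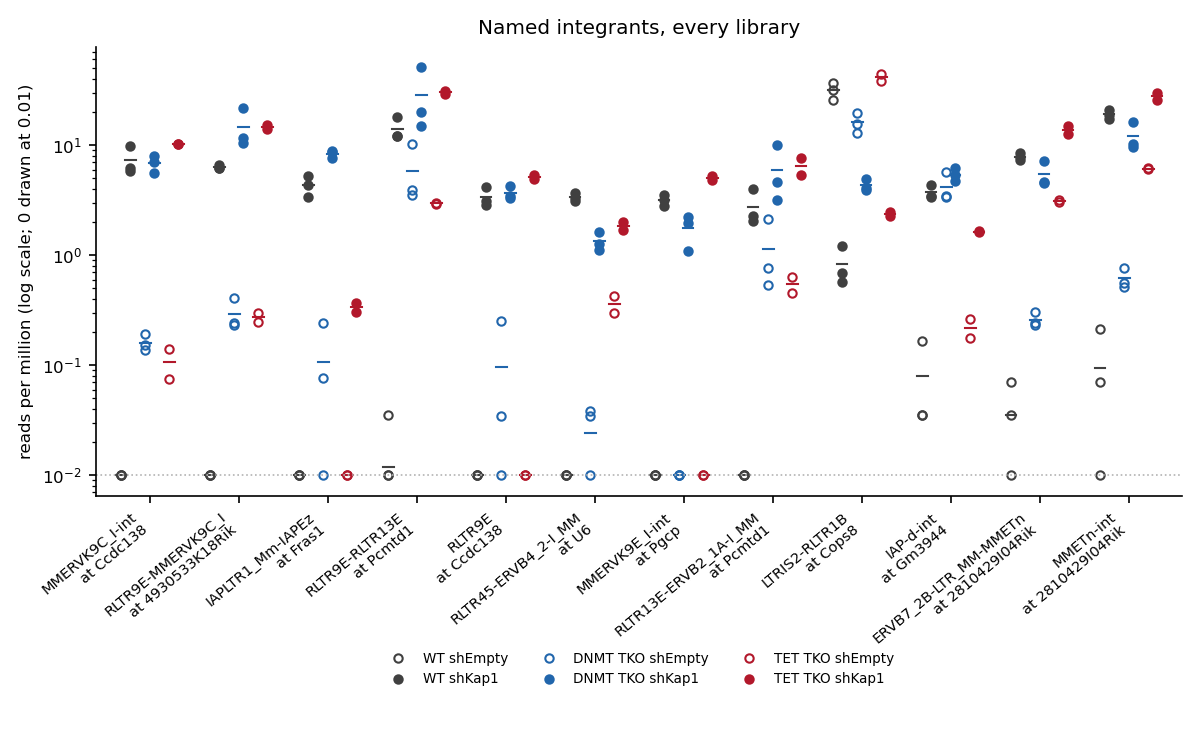
Level of the named integrants in every RNA library (y axis, CPM of gene reads, log scale, values of 0 drawn at 0.01), by genotype and treatment; points are libraries and lines are group means. The LTRIS2/RLTR1B integrant at *Cops8* falls from 25.5 to 36.8 CPM to at most 1.21 in WT, while in WT the others rise from at or near 0.

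5hmC and RNA were set side by side over unmarked regions. The median 5hmC change was 0.76 in 736 regions with an integrant of their own called up in WT, 0.63 in 1530 regions whose integrants were called neither up nor down, and 0.32 in 6227 whose integrants had fewer than 16 reads. Regions with integrants called up and with integrants not called thus lay closer to each other than to those whose integrants had fewer than 16 reads, and 5hmC was measured in 1 library per condition. The median number of CpGs also differed, at 8, 13 and 6 per region in the same order, and its part was not tested.

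Genes near unmarked regions were then examined. As with integrants, a gene could pass the filter on reads through its knockdown libraries alone. The shares thus describe the genes that passed. Of 3085 expressed genes (at least 16 reads over all libraries) whose start was the nearest to an unmarked region and within 50 kb of it, 504 rose on knockdown in WT (16.3%, against 10.8% of the 20321 genes tested) and 195 fell (6.32%, against 6.54%). In DNMT TKO 476 rose (15.4%, against 10.1%) and 72 fell (against 2.42%), and in TET TKO 416 rose (13.5%, against 8.05%) and 134 fell (against 4.46%). Many of these genes also had a KAP1 region with H3K9me3 close by. Here and below, an H3K9me3 region near a gene means such a KAP1 region. H3K9me3 away from KAP1 regions was not searched. Of the 2017 with no KAP1 region carrying H3K9me3 within 50 kb, 250 rose in WT (12.4%), 251 in DNMT TKO (12.4%) and 199 in TET TKO (9.87%), and 149 fell in WT (7.39%). Genes with no KAP1 region of any kind within 50 kb rose in 8.82% in WT, 8.12% in DNMT TKO and 5.62% in TET TKO. Genes nearest to an H3K9me3 region and to no unmarked one rose in 20.6, 20 and 16.9%, and genes nearest to both in 24.7% in WT. Genes by unmarked regions alone thus rose more often than genes without a KAP1 region, with no test of the difference. Their shares lay closer to those of all genes tested (10.8, 10.1 and 8.05%) than to those by H3K9me3 regions.

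Rises were also counted by distance. Rises in WT were 22 of 85 genes with a start outside the region but within 1 kb of it (25.9%), 152 of 945 at 1 to 10 kb (16.1%), 322 of 1990 at 10 to 50 kb (16.2%) and 285 of 1808 beyond 50 kb (15.8%). With the start inside the region 8 of 65 rose. Over the same 4 classes of distance 16.5, 14.4, 15.8 and 16.9% rose in DNMT TKO, and among genes without an H3K9me3 region within 50 kb 18.9, 11.4, 12.7 and 14.9% rose in WT, and in TET TKO 17 of the 85 genes within 1 kb rose, against 13.9, 13.2 and 11.6% in the classes farther out. The class within 1 kb thus stood highest in WT and TET TKO and not in DNMT TKO, on few genes and with no test. The knockdown effect differed from WT in 285 of the 3085 genes in DNMT TKO (9.24%, against 7.14% of all), 170 of them larger and 115 smaller (against 4.66 and 2.48%), and in 179 in TET TKO (5.80%, against 4.21%), 88 larger and 91 smaller (against 2.08 and 2.13%).

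Among the genes without a KAP1 region with H3K9me3 within 50 kb, *Ceacam19* (ENSMUSG00000049848, chr7:20461091-20473314), of the carcinoembryonic antigen-related adhesion family, rose most. It stood at 0.389, 0.747 and 0.708 CPM in WT shEmpty and 37.6, 59.5 and 54.6 in shKap1 (log2 6.29, SE 0.22, edgeR adjusted p = 5.2e-12). In DNMT TKO it went from 0.609, 0.967 and 1.31 to 59.9, 64.2 and 57.4, and in TET TKO from 0.458 and 0.413 to 77.0 and 71.3. Its unmarked region lies inside the gene, 2870 bp from the start, on B1_Mur4 and MT2B repeats, and its 5hmC change was -0.04. Shut in shEmpty and open in shKap1 of every line, it did not differ between genotypes beyond the test (differences -0.36, SE 0.38, and 1.102, SE 0.48).

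*Cyp2t4*, a cytochrome P450 gene whose start lies 235 bp from an unmarked RLTR10F region, went from 0.0555, 0.213 and 0.212 to 7.13, 12.2 and 10.1 CPM in WT (log2 5.78, SE 0.29, edgeR adjusted p = 5.1e-11) and from 0.660, 0.760 and 0.733 to 35.1, 46.4 and 43.7 in DNMT TKO. *Grid2ip*, which encodes the synaptic scaffold delphilin, went from 1.06, 0.961 and 1.38 to 34.6, 32.05 and 28.9 (log2 4.797, SE 0.13), with the region on a solitary LTRIS2. For both genes the treatments were far apart in all 3 lines.

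*Naip6*, of a family of inflammasome sensors with near-identical copies, so that reads may be split among paralogs, went from 0.111, 0.178 and 0.318 to 14.2, 18.9 and 18.2 CPM in WT. It went from 2.95, 3.97 and 3.82 to 60.6, 51.5 and 49.3 in DNMT TKO but only from 0.0352 and 0.225 to 0.463 and 0.513 in TET TKO (difference from WT -4.39, SE 0.91, edgeR adjusted p = 0.0046). *Duxbl*, a double homeobox gene, rose in WT and TET TKO, from 0.0555, 0.107 and 0.0354 to 1.26, 1.91 and 1.65 and from 0.282 and 0.451 to 4.72 and 3.90, and stood at 0.0508 to 0.138 and 0.141 to 0.334 CPM in DNMT TKO. *Apoh*, a plasma phospholipid-binding glycoprotein, had 2 reads over WT shEmpty and 129 over shKap1 (ratio 78.7, counting interval 21.4 to 657) and 0 in every DNMT TKO library. *Gm3176* likewise had 2 and 100 reads in WT (ratio 61.0, 16.5 to 511) and 0 in DNMT TKO, and *Gm11771* rose by 6.23 on the log2 scale (SE 0.31).

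The largest falls were of the same order of size. *Gm13128* went from 15.7, 13.6 and 12.6 CPM to 0.367, 0.606 and 0.426 in WT (log2 -4.86, SE 0.19, edgeR adjusted p = 1.6e-12). *Prkg2*, a cGMP-dependent kinase whose unmarked region is the solitary IAPLTR2_Mm printed above, 27912 bp from its start, went from 1.67, 1.74 and 1.56 to 0.157, 0 and 0.0533 (log2 -4.54, SE 0.46). It went from 2.69, 3.73 and 3.16 to 1.34, 1.88 and 1.56 in DNMT TKO and from 4.34 and 4.13 to 0.185 and 0.359 in TET TKO. *Dclk3*, a doublecortin-like kinase, went from 7.66, 8.15 and 8.21 to 0.419, 0.390 and 0.693 (log2 -4.01, SE 0.24).

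*Chrna4*, a nicotinic receptor subunit, *Pla2g4a*, the cytosolic phospholipase A2, and *Gm2245* fell by 4.68, 4.52 and 4.66 on the log2 scale in WT. These 6 falls were chosen as the largest in WT, which by itself favours smaller ones elsewhere. All 6 were smaller in DNMT TKO than in WT by the interaction test, where the knockdown was also weaker. In TET TKO only that of *Gm13128* was (difference 2.85, SE 0.26, edgeR adjusted p = 2.1e-06).

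**Figure D5:**
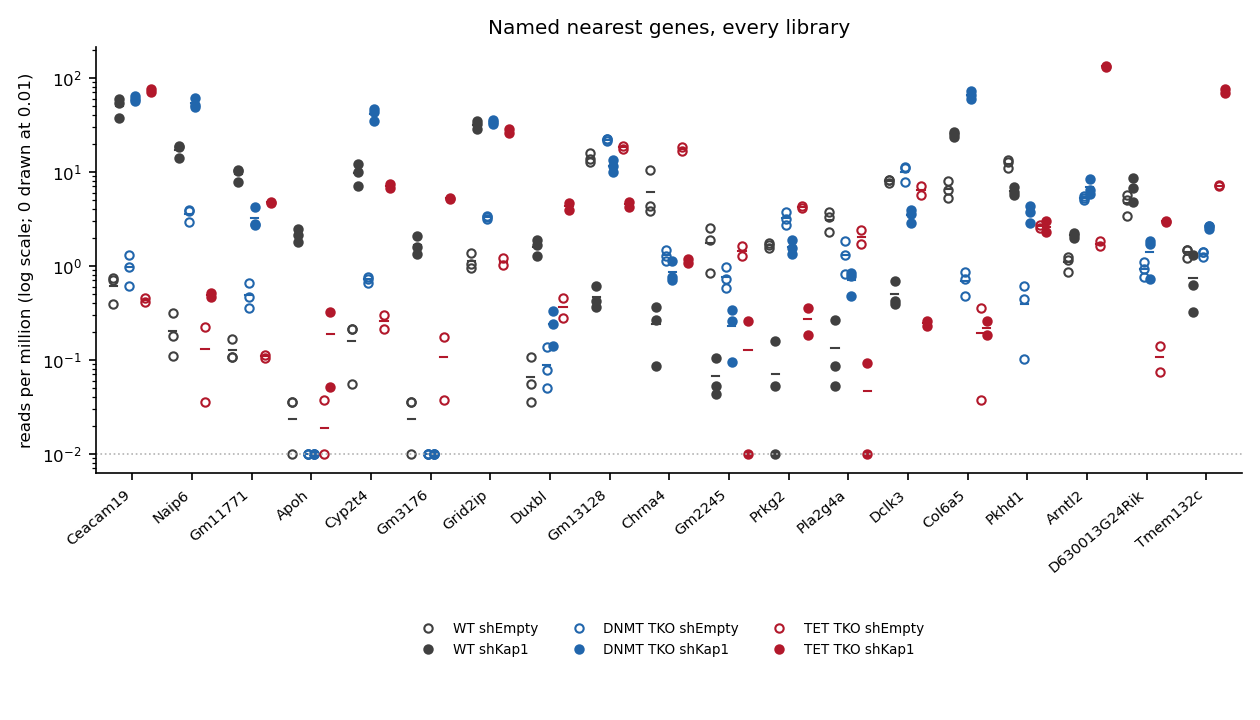
RNA of named genes near unmarked KAP1 regions in every library (y axis, CPM of gene reads, log scale, values of 0 drawn at 0.01), by genotype and treatment; points are libraries and lines are group means. *Ceacam19* rises from under 1.4 CPM to over 37 in all 3 lines, while *Arntl2* reaches 132 and 133 CPM in TET TKO shKap1 alone.

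For some genes the response differed between genotypes. *Arntl2*, a paralogue of the clock factor BMAL1, has an unmarked region 4881 bp from its start on an MMETn provirus. It went from 1.17, 0.854 and 1.24 to 2.15, 1.99 and 2.24 CPM in WT and from 4.98, 5.25 and 5.48 to 8.36, 5.88 and 6.42 in DNMT TKO, but from 1.83 and 1.61 to 133 and 132 in TET TKO (difference from WT 5.28, SE 0.26, edgeR adjusted p = 1e-09). *Tmem132c*, a transmembrane protein gene, holds its unmarked region on an L1Md_A and went from 1.22, 1.46 and 1.49 to 0.629, 1.30 and 0.320 in WT and from 7.26 and 7.06 to 75.8 and 69.9 in TET TKO (difference 4.19, SE 0.34, adjusted p = 3.8e-07). *D630013G24Rik* went from 0.141 and 0.0751 to 2.96 and 2.98 in TET TKO, with overlapping treatments in WT.

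For DNMT TKO the gene was *Col6a5*, a chain of collagen VI. It went from 5.22, 7.93 and 6.37 to 23.5, 25.5 and 26.7 CPM in WT and from 0.863, 0.483 and 0.733 to 72.8, 65.5 and 59.9 in DNMT TKO (difference 4.66, SE 0.29, edgeR adjusted p = 1.2e-08), and stayed at 0.0376 to 0.352 in every TET TKO library. *Pkhd1*, which encodes fibrocystin, moved in opposite directions, from 10.9, 12.7 and 13.3 down to 6.97, 6.15 and 5.70 in WT and from 0.102, 0.449 and 0.617 up to 2.83, 4.37 and 3.78 in DNMT TKO (difference 4.11, SE 0.37, adjusted p = 5.5e-07).

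Lists of genes with known roles held few of the nearest genes, and their counts stand beside 10.8% of all genes tested called up and 6.54% called down in WT. Of 22 naive pluripotency genes tested 2 were nearest to an unmarked region, and both fell in WT. *Nr0b1*, which encodes the orphan receptor DAX1, went from 120.0, 75.3 and 79.2 to 12.2, 9.83 and 8.53 CPM (log2 -3.16, edgeR adjusted p = 1.3e-07), with a region on L1Md_A 31909 bp from its start, and *Klf5* from 126, 132 and 133 to 45.3, 47.6 and 50.1 (log2 -1.45). Of the 12 naive ES cell markers found, 5 fell in WT by the same test, and the part of this in the change of these genes was not tested.

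*Dnmt3a*, the de novo DNA methyltransferase, holds an unmarked region in the gene and rose from 50.8, 66.5 and 71.9 to 172, 125 and 125 CPM (log2 1.15). The imprinted growth factor gene *Igf2*, whose start lies 866 bp from its region, rose from 5.83, 10.6 and 12.4 to 91.3, 79.3 and 67.5 (log2 3.02), but has an H3K9me3 region within 50 kb. All 6 genes of the 2-cell list, *Zscan4b*, *Zscan4e* and *Zscan4f* among them, rose in WT and also have an H3K9me3 region within 50 kb. In the germline list 2 of 7 rose (*Rhox9* and *Taf7l*), where 10.8% of all genes rose and 6.54% fell, in the mesoderm and endoderm list 2 of 2 fell (*Gsc*, log2 -2.56, and *Sox7*, log2 -2.31), and in the trophoblast list the single gene, *Elf5*, had 17 reads over WT shEmpty and 1 over shKap1 (ratio 13.9, counting interval 2.18 to 582).

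Of 65 nearest genes named Zfp, 9 rose and 0 fell in WT, a share of rises between the 10.8% of all genes tested and the 16.3% of all nearest genes. Of 8 olfactory receptor genes 4 rose in WT, 7 in DNMT TKO and 7 in TET TKO, where 10.1 and 8.05% of all genes rose in the mutants. Genes with so few reads can pass the filter through shKap1 alone, which by itself favours rises among those counted. Only 3 of the 8 had no H3K9me3 region within 50 kb, and 2 of these rose in WT. *Olfr165* went from 0 to 20 reads in WT, at least 8.14-fold, and had 0 reads in shEmpty of both mutants. *Hoxb3*, the single Hox gene, had 2 and 63 reads in WT (ratio 38.5, 10.2 to 325) and 3 and 3 in DNMT TKO. None of 3 Polycomb genes, 1 signalling gene and 1 clustered protocadherin was called in WT.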

How the data were processed

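The unmarked KAP1 regions and all gene and repeat lists were chosen with earlier results of these data known. Per the study's methods, reads were aligned to mm9 with HISAT2 2.0.1 (RNA, unique reads kept) or Bowtie2 2.2.1 (ChIP-seq, hMeDIP-seq). The authors deposited raw read counts per gene (featureCounts, reverse-stranded, mapping quality at least 10), per TE integrant (bedtools multicov, stranded, LTRs merged with internal parts) and per region (hMeDIP), and peak lists with a score (by the methods' wording SICER 1.1 for H3K9me3 and MACS 1.4 for the other peaks, while the H3K27me3 lists name an FDR of 0.05 in their headers; by the file's name and values, KAP1 peaks were merged with scores above 100). Versions are those of the submitters' processing notes.

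Genes and integrants with at least 16 reads over the 16 libraries were fitted in edgeR 4.0.16 (R 4.3.3; TMM from gene counts, robust quasi-likelihood, Benjamini-Hochberg over all features tested), with 6 groups and no block. Calls were made at adjusted p below 0.05 and 2-fold or more. The script was tested on simulated data. CPM are per 1000000 TMM-scaled gene reads. 5hmC used replicate 1 of hMeDIP with 1 read added per count. The 4 libraries of replicate 2 carry labels and file names with different roles and entered no comparison. Positions came from GENCODE M1 on NCBIM37, and symbols matched 37205 of 37991 gene identifiers. Overlap needed 1 bp (bedtools 2.31.1). Counting intervals are of 95%. A fold against a group without reads used a floor of 3 reads over the group.

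Same-numbered libraries deviated together over genes (correlations of 0.218 to 0.412 between treatments in WT and 0.162 to 0.493 in DNMT TKO), not in every pair over integrants (0.0294 to 0.117 and 0.0135 to 0.136). The pairing comes from the values, since no label says what a number marks.

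Named genes were the 8 largest rises and 6 largest falls in WT among called genes within 50 kb of an unmarked region, with no KAP1 region with H3K9me3 within 50 kb, at least 100 reads in WT and no overlap of treatments, plus the 3 largest called differences per interaction and the 3 largest called changes per list. Integrants followed the same rule with 8, 4 and 2. Regions were the 4 with the highest 5hmC over input, the 4 largest rises and the 2 largest falls, of which 2 are not reported here. Alternatives covered scaling, filters, tools, fold, distance, overlap, block and leaving out each library.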

Additional observations from a re-analysis of the deposited data

Results flagged for a closer look

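The knockdown effect in a mutant line differed from that in WT, by the interaction test of the edgeR fit, for 23 of the genes and integrants named by size of change or by that test. Genes named from the lists, of which some also differed, are left out of this count. Naming by a large WT change favours a smaller one elsewhere, and some were named for a called difference, so the count measures no share. Over all features 7.14% of genes and 1.80% of integrants differed in DNMT TKO, and 4.21 and 1.07% in TET TKO. Differences are of log2 changes, mutant minus WT, each from 2 or 3 libraries per group.

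Of the genes named for the largest rises in WT, the effect in DNMT TKO was smaller for *Naip6* (-2.39), *Gm11771* (-3.55), *Grid2ip* (-1.42) and *Duxbl* (-3.14), and in TET TKO for *Naip6* (-4.39). *Grid2ip* and *Naip6* reached a similar or higher level in DNMT TKO shKap1 than in WT shKap1 and started from a higher one, whereas *Duxbl* and *Gm11771* reached a lower one.

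The 6 genes named for the largest falls in WT all fell less in DNMT TKO. The difference was 3.93 for *Gm13128*, 4.10 for *Chrna4*, 2.99 for *Gm2245*, 3.53 for *Prkg2*, 3.59 for *Pla2g4a* and 2.48 for *Dclk3*. Of these 6, *Gm13128* also fell less in TET TKO (2.85). *Trim28* fell less in DNMT TKO as well (difference 1.28, SE 0.21), and its part in these differences was not tested.

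Genes named for their difference were *Col6a5* (4.66) and *Pkhd1* (4.11) in DNMT TKO, *Arntl2* (5.28) and *D630013G24Rik* (4.21) in TET TKO, and *Tmem132c* in both (1.78 in DNMT TKO and 4.19 in TET TKO).

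Of the integrants, the rise was smaller in DNMT TKO for MMERVK9C_I at chr10:57996542-57998806 (-5.05), RLTR9E/MMERVK9C_I at chr10:70300177-70305695 (-4.56), RLTR9E/RLTR13E/MMERVK9C_I at chr1:7114719-7120200 (-7.26), IAP-d at chr12:18906357-18909289 (-5.31) and the MMETn pieces at chr13:3484008-3484773 (-3.06) and chr13:3485329-3488292 (-3.14). It was smaller in TET TKO for the chr10:70300177-70305695 element (-4.50), RLTR45/ERVB4_2 at chr7:19336133-19337662 (-6.97), IAP-d (-2.80) and the MMETn pieces (-5.30 and -5.24). The fall of LTRIS2/RLTR1B at chr1:92519582-92523073 was smaller in both lines (3.31 and 1.09). Where WT shEmpty had 0 reads, in MMERVK9C_I, RLTR9E/MMERVK9C_I and RLTR45/ERVB4_2, the size of the fitted difference depends on the prior count and bounds nothing.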

How the results depend on the processing

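Of 371 values of the main comparisons under other settings, 327 kept their direction and lay within 1.5 times of the reported count or within its spread, and of 771 values of named genes and integrants 766 kept their call. The 5 that lost it were all of the RLTR9E/RLTR13E/MMERVK9C_I integrant at chr1:7114719-7120200, DNMT TKO minus WT. The cause was not tested for any change given here, save that stricter filters, shorter distances and fewer regions leave fewer features. With at least 160 reads, integrants called up numbered 499 in WT, 520 in DNMT TKO and 515 in TET TKO, and those whose effect differed 87 (DNMT TKO minus WT) and 43 (TET TKO minus WT). DESeq2's Wald test gave 774 up in WT, 928 up in DNMT TKO, 782 up in TET TKO, and 81 and 43 that differed, and a filter of 1 read gave 52 for TET TKO minus WT. For nearest genes, in the order up in WT, down in WT, up in DNMT TKO, up in TET TKO, DNMT TKO minus WT and TET TKO minus WT, no fold threshold gave 961, 541, 808, 687, 613 and 362, starts within 10 kb 182, 68, 162, 154, 100 and 71, and no limit on distance 789, 307, 782, 625, 452 and 280. Without a KAP1 region with H3K9me3 within 50 kb the counts other than down in WT were 250, 251, 199, 179 and 102. The median of 5hmC over input in shEmpty was -0.0496 with a pseudocount of 5 and -0.0325 with at least 30 input reads, 1.42 scaled to H3K4me3 regions, 0.57 without the 10 largest regions and 0.44 without the largest, a setting chosen after seeing the data. The median change was 0.027, -0.087 and 0.047 under these 3 scalings. If a mark counted only from a 25% reciprocal overlap, 15743 regions were unmarked.

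Leaving out 1 library at a time, integrants called up ranged from 860 to 1047 in WT, 1255 to 1550 in DNMT TKO and 908 to 1257 in TET TKO, and those that differed from 102 to 144 and from 41 to 93. Nearest genes ranged from 478 to 516 up and 178 to 201 down in WT, 422 to 480 up in DNMT TKO, 339 to 425 up in TET TKO, and 246 to 292 and 121 to 201 that differed. With the replicate number as a block, 1004, 1494 and 1217 integrants were up and 142 and 85 differed, and nearest genes numbered 511 up and 195 down in WT, 472 up in DNMT TKO, 421 up in TET TKO, and 304 and 200 that differed. The block changed no call beyond 1.5 times. Counts of 11 to 29 reads per region limit 5hmC to medians, and 2 libraries per treatment limit TET TKO.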

Other observations

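The 4 libraries of hMeDIP replicate 2, whose roles differ between labels and file names, were read over the same regions as single values. Unmarked KAP1 regions took 3.63% of the reads of the library labelled input shEmpty, 3.41% of that labelled input shKAP1, 4.83% of that labelled 5hmC shEmpty and 3.19% of that labelled 5hmC shKAP1. The median reads per unmarked region were 23, 14, 38 and 14, from totals over the region sets of 10261271, 5849673, 12571208 and 6213882.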
